A study of Zea mays with 12 samples.

Results

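Bracts are leaves that subtend branches or flowers of the inflorescence. In maize those under branches and spikelets normally stay suppressed, and loss of either *tsh1* or *tsh4* releases their growth. The 45 genes described here were modestly higher in bract primordia of each single mutant and at least 1 log2 unit higher in the *tsh1 tsh4* double mutant, so that the question they bear on is how far the single-mutant differences add up. They were chosen from the expression values themselves, out of 20168 genes. The difference d is the mean of a genotype minus the mean of B73 on the log2(CPM + 0.1) scale, where CPM is the normalized count of reads scaled to the size of its library. A gene was taken if its mean over 12 libraries was at least 1 CPM, if d was at least 1 in *tsh1 tsh4* and from 0.25 to under 1 in each single mutant, and if every *tsh1 tsh4* library was above every B73 library. The rule was met by 47 genes. Of these, *drl1* (GRMZM2G088309) and *ZmICE1* (GRMZM2G173534) were left out because they are among 56 genes that the study displays separately.

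The libraries came from laser-microdissected ear bract primordia of 4 genotypes, with 3 biological replicates each. Cells were captured from bracts whose adjoining meristem had not yet become visible. The wild type was the inbred line B73. The mutants carried *tsh1-ref*, a *Mu* transposon insertion with a large deletion that also reaches genes beyond *tsh1*, *tsh4-rm*, a *Mutator* insertion in the first intron of *tsh4*, or both alleles. Both alleles had been introgressed repeatedly into B73, all plants were grown in a greenhouse without treatment, and the RNA of each capture was amplified in vitro before library construction. The study calls the replicates biological, but the plants from which each capture was taken are not given.

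As background, *tsh1* encodes a GATA zinc-finger transcription factor and *tsh4* an SBP-box transcription factor, and both are expressed in the suppressed bract. A bract that is released from suppression grows as a leaf does, by cell division followed by cell expansion. When factors act independently on a gene, their effects are commonly expected to multiply, which on a log scale means that they add, although the *tsh4* mutant here also had less *tsh1*. The 45 genes are mostly known by identifier alone. In the gene table used for names, 34 of them could be matched and 5 carry a name, namely *cycD1* (GRMZM2G006721), *sbp3* (GRMZM2G101499), *PP2C11* (GRMZM2G308615), *GPDH5* (GRMZM2G063258), and *Baf1R-1* (GRMZM2G029096).

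The libraries held 49481413 to 110703826 reads on genes. *tsh1* was at 67.4 ± 19.6 CPM (SD, n = 3) in B73 and at 0.527 ± 0.246 CPM in the *tsh1* mutant, and *tsh4* was at 1323 ± 249 CPM in B73 and 73.7 ± 7.83 CPM in the *tsh4* mutant. In *tsh1 tsh4* they were at 0.521 ± 0.0749 and 60.1 ± 16.7 CPM, so the libraries matched their labels. In the *tsh4* mutant, *tsh1* itself was at 22.5 ± 3.42 CPM, so both genes had lower mean levels in that mutant than in B73. The bract marker *zyb15* was high in every library, from 1033 to 1804 CPM. Genes of other cells were present too. A list of 9 KNOX genes, matched by name, holds the meristem gene *kn1* but was not limited to genes that mark meristems. Its genes summed to 922 to 1135 CPM in B73, 664 to 971 CPM in *tsh1*, 555 to 774 CPM in *tsh4*, and 590.1 to 966 CPM in *tsh1 tsh4*, with none of them at 0. *kn1* was at 179 ± 28.9 CPM in B73 and 175 ± 66.0 CPM in *tsh1 tsh4*. By limma, 0 of the 9 were called higher and 1 lower in *tsh1 tsh4*, beside 2.69% and 3.15% of all genes. A call here needs a p of at most 0.05 after Benjamini-Hochberg adjustment and a log2 fold change of 1 or more in size. The boundary genes *ba1* and *baf1*, expressed beside the bract, had their lowest levels in the double mutant, with *ba1* at 122 to 148 CPM in B73, 87.5 to 96.3 CPM in *tsh1*, 63.1 to 125 CPM in *tsh4*, and 38.0 to 59.7 CPM in *tsh1 tsh4*, and *baf1* at 32.3 to 45.6, 17.2 to 28.2, 12.2 to 23.4, and 7.91 to 11.7 CPM in the same order. The part of either set of cells in the differences below was not tested, and fewer cells of a type cannot be told apart from less RNA per cell in such samples.

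Across the 45 genes, d had a median of 0.52 for *tsh1*, 0.78 for *tsh4*, and 1.17 for *tsh1 tsh4*. It ran from 0.274 to 0.995 in *tsh1*, from 0.342 to 0.9986 in *tsh4*, and from 1.01 to 1.99 in the double mutant, within the limits set by the rule. The typical gene was therefore higher in the double mutant by a factor of 2.26, with a range of 2.01 to 3.97. The SE of d had a median of 0.28 log2 units, so that most single-mutant differences were of the order of 2 SE. A d above 2 SE was found for 22 genes in *tsh1* and for 36 genes in *tsh4*. In *tsh1*, 2 genes had a d no larger than 1 SE, and in *tsh4* 0 did.

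The 3 libraries of a genotype gave like averages over the 45 genes. The mean d was 0.654, 0.488, and 0.523 in the *tsh1* libraries. It was 0.769, 0.655, and 0.789 in the *tsh4* libraries. In *tsh1 tsh4* it was 1.296, 1.19, and 1.22. The lowest *tsh4* library (0.655) was level with the highest *tsh1* library (0.654), and the double mutant stood apart from both. As genotype means these were 0.56 ± 0.09, 0.74 ± 0.07, and 1.24 ± 0.05 (SD, n = 3). Replicate 1 was the deepest library of every genotype and was the highest of its genotype in *tsh1* and *tsh1 tsh4* but not in *tsh4* or B73.

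**Figure D1:**
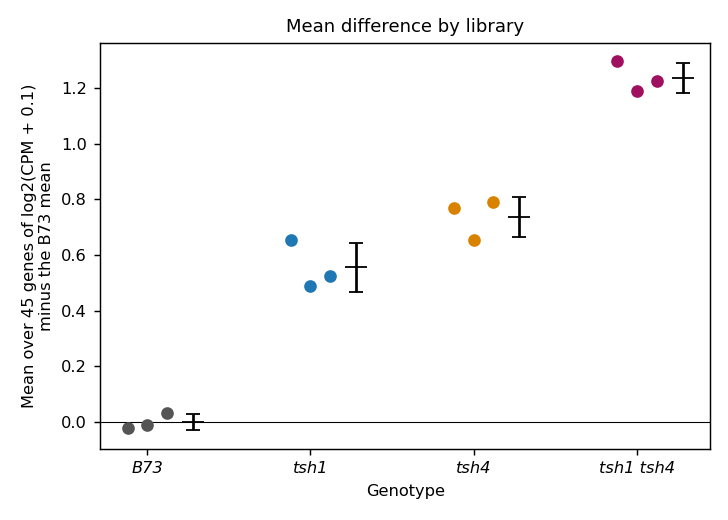
Mean over the 45 genes of log2(CPM + 0.1) minus the B73 mean (vertical axis) for each of 12 libraries (points, by genotype), with the genotype mean and SD (bars, n = 3). The *tsh1* libraries lie between 0.488 and 0.654, the *tsh4* libraries between 0.655 and 0.789, and the *tsh1 tsh4* libraries between 1.19 and 1.296. The rule placed the means of both single mutants between B73 and *tsh1 tsh4* but set no order between *tsh1* and *tsh4*.

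Single libraries were less orderly than the averages. All *tsh4* libraries were above all B73 libraries for 37 of the 45 genes, where the background is 11.7% of all genes. The same held in *tsh1* for 17 genes, beside 5.75% of all genes, and in *tsh1 tsh4* for every gene by the rule, beside 10.4%. Since the rule required a difference in the same means, nothing follows from these counts about the genes. For 7 genes, neither single mutant cleared the B73 libraries, and for 16 genes both did. The double mutant exceeded every single-mutant library for 13 genes, beside 1.42% of all genes. The complete order, with B73 lowest, both single mutants between, and *tsh1 tsh4* highest without any overlap, was seen for 6 genes, namely *sbp3*, *GPDH5*, GRMZM2G128248, GRMZM2G006229, GRMZM2G061292, and GRMZM2G055420.

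**Figure D2:**
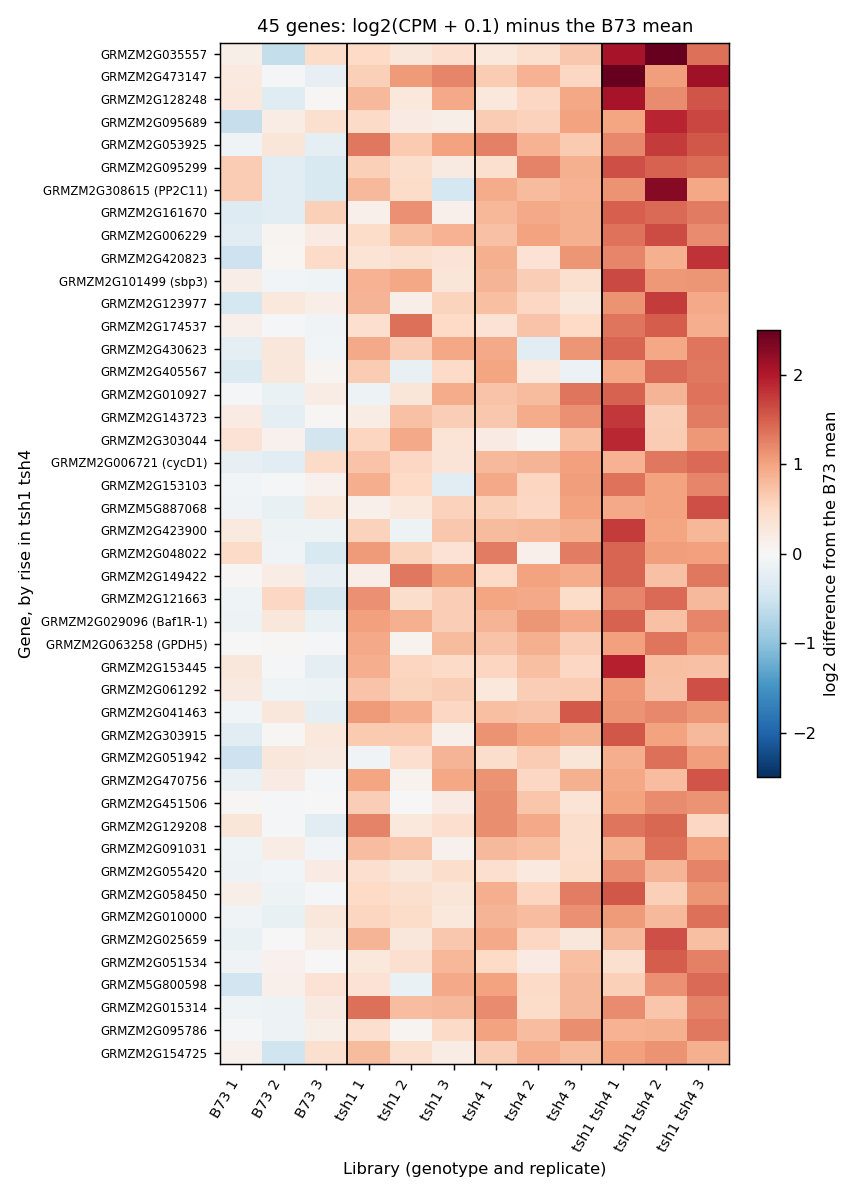
Heat map of log2(CPM + 0.1) minus the B73 mean for the 45 genes (rows, ordered by d in *tsh1 tsh4*) in 12 libraries (columns), with red above and blue below the B73 mean. The *tsh1 tsh4* columns are red in every row, as the rule required, and the *tsh1* columns are the palest of the mutants, with a median d of 0.52.

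Cyclin D1 is one of the D-type cyclins, which pair with cyclin-dependent kinases to carry cells from the first gap phase into DNA synthesis. *cycD1* was at 23.8, 22.5, and 38.2 CPM in B73 and at 44.9, 39.2, and 34.1 CPM in *tsh1*. In *tsh4* it was at 48.3, 49.3, and 55.6 CPM, and in *tsh1 tsh4* at 49.8, 68.4, and 73.305 CPM. The third B73 library overlapped the *tsh1* libraries, *tsh4* was clear of both, and the lowest double-mutant library lay within the *tsh4* range. With d of 0.52, 0.90, and 1.2 for *tsh1*, *tsh4*, and the double mutant (SE 0.21), *cycD1* was 0.21 ± 0.29 (SE) short of the sum. On the CPM scale the double mutant gained 35.7 CPM, and the gains of the single mutants summed to 34.1 CPM.

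Other genes of the cell cycle and of histones were set beside *cycD1*. Of the 20 with such a name, 1 was called higher in *tsh1 tsh4* (*cycD1* itself) and 0 lower by limma. Of all genes, 2.69% were called higher and 3.15% lower. The median log2 fold change of the 20 in *tsh1 tsh4* was 0.17, with 17 of them above 0. Over all genes the median was −0.01, with 9898 of 20168 above 0. In *tsh1* and *tsh4*, 0 of the 20 were called in either direction, and their medians were 0.20 and 0.21. Another D-type cyclin, *cycD4* (GRMZM2G133413), was close to *cycD1* in the single mutants, at log2 fold changes of 0.57 and 0.94, and narrowly missed the rule at 0.98 in the double mutant. *cycD2* (GRMZM2G075117) was at −0.05, −0.24, and −0.15 in the same order. Both were looked up after their values were known.

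The SBP-box family, to which *tsh4* belongs, is a plant family of transcription factors that act in the timing of development and in the outline of organs and meristems. The member named *sbp3* (GRMZM2G101499) was at 2.84, 2.41, and 2.33 CPM in B73. It was at 4.69, 4.99, and 3.12 CPM in *tsh1*, at 4.63, 3.89, and 3.36 CPM in *tsh4*, and at 8.13, 5.48, and 5.52 CPM in *tsh1 tsh4*. Both single mutants lay above B73 and below the double mutant in all libraries, and they overlapped each other. With d of 0.71, 0.62, and 1.28 (SE 0.24), *sbp3* was nearly additive on the log2 scale, at −0.05 ± 0.33 (SE) from the sum. The name is shared by GRMZM2G106798, which was at 43.0 CPM in B73 and 43.2 CPM in *tsh1 tsh4*, so the identifier and not the name should be followed.

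Among the 20 genes with an SBP name, a set put together after the values were seen, 3 were called higher and 3 lower in *tsh1 tsh4*, beside 2.69% and 3.15% of all genes, with a median log2 fold change of 0.02. Of the 3 called lower, 1 was *tsh4* itself. Those called higher with *sbp3* were *tga1* (GRMZM2G101511), the regulator of the casing that encloses the teosinte grain, and *sbp29* (GRMZM2G067624). Their profiles over the mutants were not those of *sbp3*. For *tsh1*, *tsh4*, and the double mutant, the log2 fold change of *tga1* was −0.02, 2.24, and 2.14, and that of *sbp29* was 1.42, 0.11, and 1.52.

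Type 2C protein phosphatases remove phosphate from serine and threonine residues, and members of the family act in stress and hormone signaling in plants. *PP2C11* (GRMZM2G308615) was the most variable of the 45 genes between replicates, with a pooled SD of 0.55 log2 units, and rests on few reads, with 21 in its lowest library. It was at 1.06, 0.529, and 0.479 CPM in B73, at 1.22, 0.925, and 0.455 CPM in *tsh1*, at 1.33, 1.202, and 1.27 CPM in *tsh4*, and at 1.53, 3.52, and 1.36 CPM in *tsh1 tsh4*. The *tsh1* libraries covered the same range as B73, and 1 double-mutant library was more than 2 times as high as the others. Without that library, replicate 2, its d in *tsh1 tsh4* was 1.04 in place of 1.45 and it was no longer called by limma, as was also so without replicate 2 (d 1.32) or 3 (d 1.26) of B73. Of the 22 genes with a PP2C name, again collected after the values were seen, 2 were called higher and 2 lower in *tsh1 tsh4*, beside 2.69% and 3.15% of all genes, with a median log2 fold change of 0.11.

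*GPDH5* (GRMZM2G063258) was the most even of the named genes in B73, at 2.24, 2.27, and 2.16 CPM. It was at 4.39, 2.37, and 3.90 CPM in *tsh1*, at 3.73, 4.21, and 3.48 CPM in *tsh4*, and at 4.65, 5.75, and 4.79 CPM in *tsh1 tsh4*. All mutant libraries were above B73, although the second *tsh1* library exceeded it by little. The d was 0.61, 0.74, and 1.15 (SE 0.23). The other 3 genes with a GPDH name, *GPDH1*, *GPDH3*, and *GPDH4*, had log2 fold changes of −0.56, −0.28, and −0.06 in *tsh1 tsh4*, none of which was called.

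**Figure D3:**
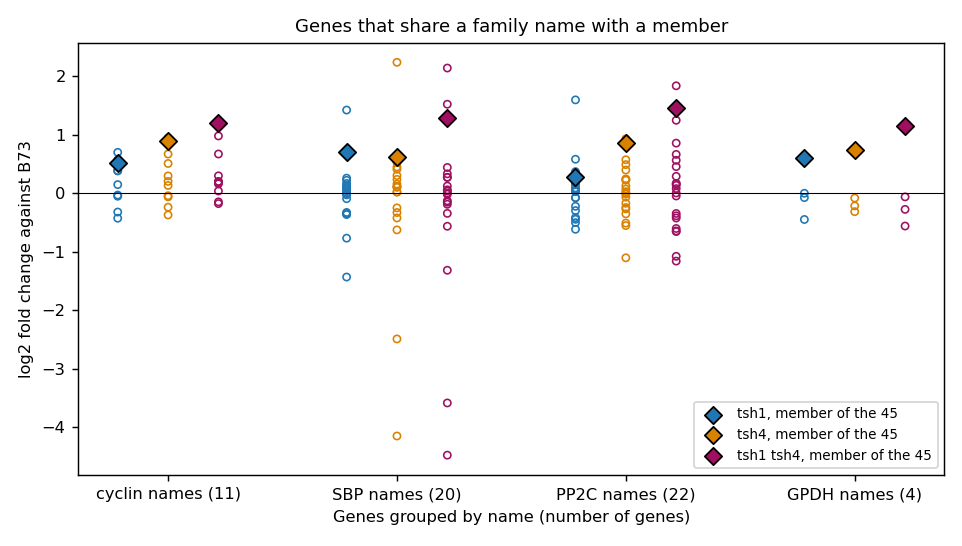
Log2 fold change against B73 (vertical axis) in *tsh1* (blue), *tsh4* (orange), and *tsh1 tsh4* (purple) for genes that share a family name with one of the 45 genes. Filled diamonds are the members *cycD1*, *sbp3*, *PP2C11*, and *GPDH5*, at 1.2, 1.28, 1.45, and 1.15 in *tsh1 tsh4*, and open circles are the other genes of each name, most of which lie nearer 0; the sets were drawn up after the values were known.

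*Baf1R-1* (GRMZM2G029096) carried large single-mutant differences and gained little more in the double mutant. It was at 12.4, 16.4, and 12.04 CPM in B73, at 27.4, 24.997, and 20.7 CPM in *tsh1*, at 24.3, 29.2, and 26.0 CPM in *tsh4*, and at 37.8, 22.6, and 31.6 CPM in *tsh1 tsh4*. The mutants all cleared B73, and the 3 mutant genotypes overlapped one another. The d was 0.84, 0.97, and 1.15 (SE 0.20), which is 0.66 ± 0.28 (SE) short of the sum. It lies on the chromosome of *tsh4* with 116 protein-coding genes between them in the gene order of the NAM-5.0 assembly, where 3 other members on that chromosome are 536 to 1046 genes away.

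The departure from additivity, d in *tsh1 tsh4* minus the sum of d in *tsh1* and *tsh4*, had a median of −0.09 log2 units and ran from −0.76 to 1.14. It was below 0 for 28 genes and above 0 for 17. With a median SE of 0.40 for this quantity, 34 genes lay within 1 SE of additivity, 4 lay above by more, 7 lay below by more, and 3 were beyond 2 SE in either direction. By limma, 0 of the 45 genes departed in either direction at an adjusted p of 0.05 or less, beside 0.179% of all genes above additivity and 0.109% below. At an unadjusted p of at most 0.05, 1 gene was above and 1 below, beside 3.12% and 2.20% of all genes. The rule bounds the departure, since the single-mutant differences were under 1 and the double-mutant difference at least 1. With SEs of this size, a departure beyond 2 SE in a single gene can still go uncalled. GRMZM2G035557, at 1.14 ± 0.46 (SE), had an adjusted p of 0.74 by limma. The 0 calls therefore do not show that the genes are additive.

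The same sums read differently in CPM. The gain of the double mutant over B73 exceeded the summed gains of the single mutants for 29 genes and fell short for 16. For 12 genes the double mutant was below the sum on the log2 scale and above it on the CPM scale, and the reverse was found for 0 genes. Rises that add on the log2 scale multiply in CPM and so give more than the summed gains. The reverse could therefore hardly occur, and the split of 29 to 16 leans the same way by construction. The ratio of the double-mutant gain to the summed gains had a median of 1.12 and ran from 0.598 to 5.15.

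**Figure D4:**
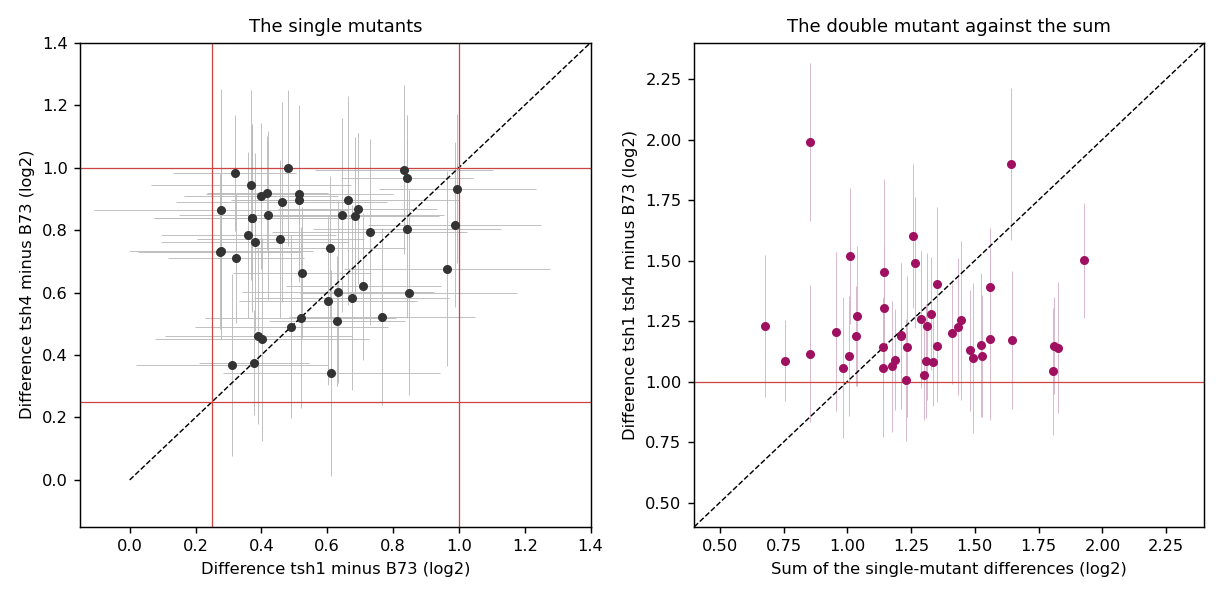
Left, d in *tsh4* against d in *tsh1* for the 45 genes, with SE bars; right, d in *tsh1 tsh4* against the sum of the single-mutant d, with SE bars on the vertical axis (all in log2 units; dashed lines mark equality and red lines the limits set by the rule). On the left 31 genes lie above the dashed line, and on the right 17 lie above and 28 below.

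Furthest above the sum was GRMZM2G035557, with a departure of 1.14 ± 0.46 (SE). It was at 0.662, 0.352, and 0.839 CPM in B73, at 0.870, 0.733, and 0.824 CPM in *tsh1*, at 0.729, 0.807, and 0.996 CPM in *tsh4*, and at 2.75, 3.87, and 1.69 CPM in *tsh1 tsh4*. Both single mutants overlapped B73, and the double mutant was clear of all other libraries. Its d of 1.99 (SE 0.33) was the highest of the 45 and rests on few reads, with 20 in its lowest library. GRMZM2G405567 and GRMZM2G095689 came next, at 0.55 ± 0.41 and 0.51 ± 0.40 (SE).

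For GRMZM2G405567, B73 was at 2.29, 3.58, and 3.1 CPM and *tsh1 tsh4* at 5.86, 7.98, and 7.43 CPM. The *tsh1* libraries were at 4.59, 2.58, and 4.16 CPM and the *tsh4* libraries at 5.96, 3.51, and 2.65 CPM. Both single mutants thus overlapped B73, and *tsh4* also reached the lowest double-mutant library. GRMZM2G055420 had a smaller departure, 0.33 ± 0.24 (SE), but was the most even between replicates, with a pooled SD of 0.16 log2 units. It was at 11.6, 12.1, and 14.6 CPM in B73, at 16.9, 15.4, and 17.3 CPM in *tsh1*, at 17.0, 15.0, and 17.5 CPM in *tsh4*, and at 28.7, 22.8, and 30.2 CPM in *tsh1 tsh4*. The single mutants overlapped each other and lay between B73 and the double mutant, and the double-mutant gain of 14.5 CPM compared with 7.58 CPM for the summed gains. Its record in the gene table also lists GRMZM2G051932, a weakly expressed gene at a mean of 0.199 CPM, so reads of this locus may have been divided.

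Furthest below the sum were GRMZM2G015314, at −0.76 ± 0.37 (SE), GRMZM2G041463, at −0.69 ± 0.38, and *Baf1R-1*. GRMZM2G015314 was at 1.07, 1.06, and 1.37 CPM in B73, at 3.18, 2.04, and 2.10 CPM in *tsh1*, at 2.74, 1.63, and 2.11 CPM in *tsh4*, and at 2.75, 1.94, and 2.88 CPM in *tsh1 tsh4*. Each mutant was above B73, and no mutant cleared another. GRMZM2G041463 was at 0.821, 1.07, and 0.719 CPM in B73, 1.91, 1.71, and 1.28 CPM in *tsh1*, 1.51, 1.46, and 2.67 CPM in *tsh4*, and 1.98, 2.10, and 1.97 CPM in *tsh1 tsh4*. The double mutant was within the range of *tsh4*. Both genes had d close to the upper limit of the rule in a single mutant, at 0.99 in *tsh1* for GRMZM2G015314 and 0.99 in *tsh4* for GRMZM2G041463.

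GRMZM2G053925 had the largest pair of single-mutant differences, with d of 0.995 and 0.93, and a d of 1.501 in *tsh1 tsh4* (SE 0.24). It was at 3.03, 3.98, and 2.72 CPM in B73 and at 7.45, 11.1, and 9.61 CPM in *tsh1 tsh4*. The single mutants, at 8.17, 5.08, and 6.57 CPM in *tsh1* and 7.85, 5.97, and 5.10 CPM in *tsh4*, cleared B73 and reached into the double-mutant range. A d of at least 0.75 in both single mutants was found for 5 genes, which were GRMZM2G053925, GRMZM2G149422, GRMZM2G029096, GRMZM2G041463, and GRMZM2G015314. All 5 were below the sum in the double mutant, which the choice itself favors, because the sum is made of the same large differences.

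The remaining genes with a high d in *tsh1 tsh4* were GRMZM2G473147, at 1.90 (SE 0.31), GRMZM2G128248, at 1.60 (SE 0.30), GRMZM2G095299, at 1.49 (SE 0.27), and GRMZM2G161670, at 1.401 (SE 0.32). GRMZM2G473147 was at 1.81, 1.48, and 1.301 CPM in B73, 2.36, 3.30, and 3.67 CPM in *tsh1*, 2.42, 2.87, and 2.21 CPM in *tsh4*, and 9.28, 3.24, and 6.90 CPM in *tsh1 tsh4*. Its double-mutant libraries were widely spread, and the lowest lay within the *tsh1* range. GRMZM2G128248 was at 0.954, 0.617, and 0.805 CPM in B73, 1.44, 0.959, and 1.60 CPM in *tsh1*, 0.958, 1.16, and 1.62 CPM in *tsh4*, and 3.56, 1.90, and 2.52 CPM in *tsh1 tsh4*. It kept the complete order of genotypes, by narrow margins at the B73 edge.

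GRMZM2G095299 was at 4.43, 2.33, and 2.12 CPM in B73, 4.29, 3.82, and 3.30 CPM in *tsh1*, 3.75, 6.76, and 5.29 CPM in *tsh4*, and 8.73, 7.91, and 7.57 CPM in *tsh1 tsh4*. A single high B73 library was above all of *tsh1* and part of *tsh4*. GRMZM2G161670 was at 0.406, 0.423, and 0.856 CPM in B73, 0.592, 1.29, and 0.586 CPM in *tsh1*, 1.02, 1.13, and 1.07 CPM in *tsh4*, and 1.69, 1.58, and 1.45 CPM in *tsh1 tsh4*. *tsh4* and the double mutant were each tight and separate, whereas 1 of the *tsh1* libraries exceeded the *tsh4* range and the rest were within that of B73.

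**Figure D5:**
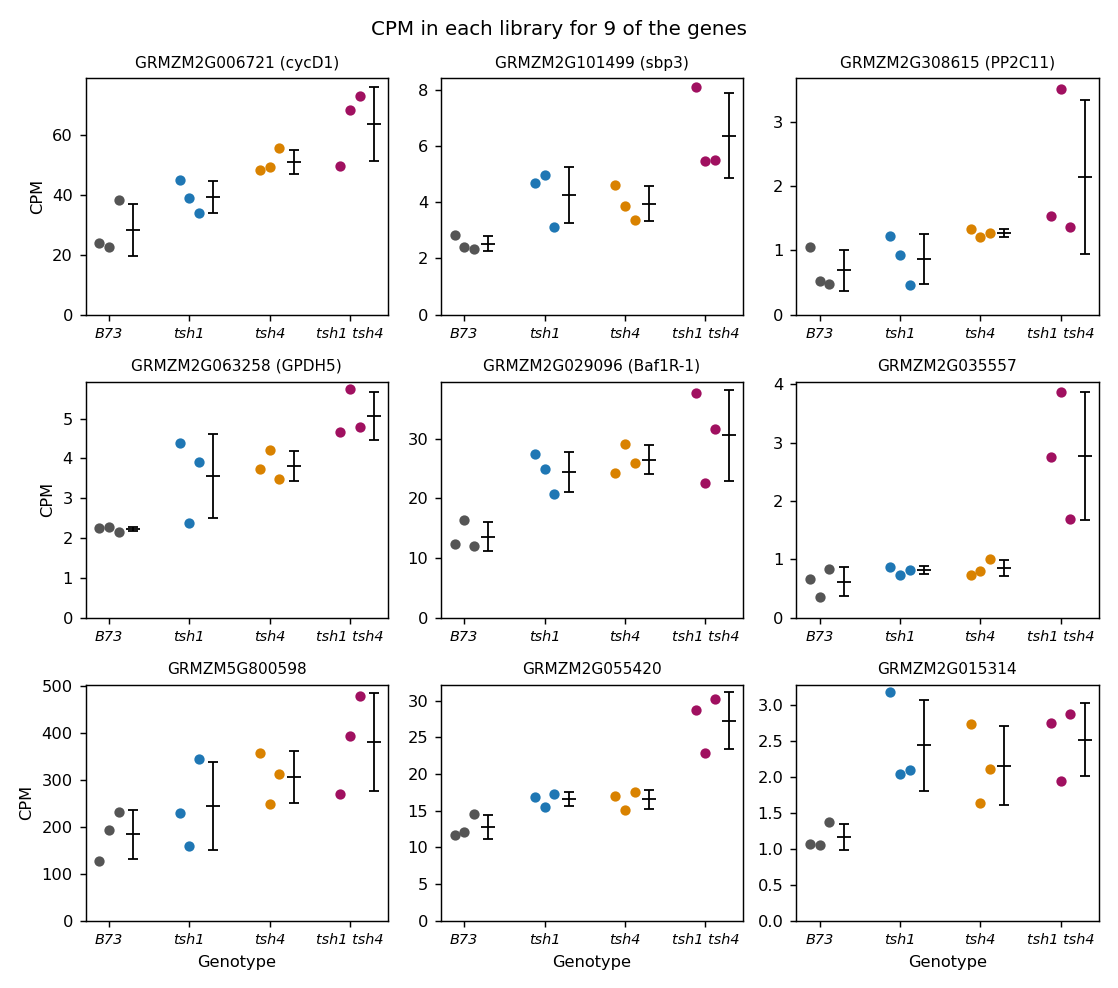
CPM (vertical axes, from 0) in each library for 9 of the 45 genes, by genotype, with the mean and SD (bars, n = 3). *GPDH5* and *sbp3* keep the 4 genotypes in order with the single mutants between B73 and *tsh1 tsh4*, GRMZM2G035557 stands at 1.69 CPM or more only in *tsh1 tsh4*, and GRMZM2G015314 overlaps among the 3 mutants.

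Of the single mutants, *tsh4* had the larger d for 31 genes and *tsh1* for 14. Over all genes too, more were called higher than B73 in *tsh4* (2.04%) than in *tsh1* (0.441%). At least a 2 times larger d in *tsh4* than in *tsh1* was found for 14 genes, and the reverse for 0. A gap of at most 0.15 between them was found for 17 genes. The direct contrast of *tsh4* with *tsh1* gave 0 calls among the 45 genes by limma at an adjusted p of 0.05 or less, beside 2.69% of all genes higher in *tsh4* and 1.41% lower. At an unadjusted p of at most 0.05, 3 genes were higher in *tsh4*, beside 6.87% of all genes. The limits of the rule leave little room for a difference here, since both d lie between 0.25 and 1.

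Of the 7 genes with a mean of at least 20 CPM (not corrected for gene length), 6 had the larger d in *tsh4*. GRMZM5G800598 was at 127, 193, and 230.2 CPM in B73, 229.6, 158, and 343 CPM in *tsh1*, 356, 247, and 312 CPM in *tsh4*, and 270.1, 393, and 477 CPM in *tsh1 tsh4*. Its *tsh1* libraries ran from within B73 to within *tsh4*, and its *tsh4* libraries overlapped the double mutant. Its d was 0.38, 0.76, and 1.05 (SE 0.28), and without replicate 1 of B73 the d in *tsh1 tsh4* was 0.81 and the gene was no longer called by limma. It also lost the call without replicate 2 of B73 (1.11) and without replicate 2 (1.01) or 3 (0.87) of *tsh1 tsh4*.

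GRMZM5G887068 was at 52.0, 48.6, and 65.9 CPM in B73, 60.4, 65.8, and 82.0 CPM in *tsh1*, 83.5, 79.2, and 111 CPM in *tsh4*, and 106, 110.4, and 169 CPM in *tsh1 tsh4*. GRMZM2G010000 was at 43.8, 41.1, and 56.6 CPM in B73, 68.2, 63.9, and 55.9 CPM in *tsh1*, 84.4, 79.6, and 103 CPM in *tsh4*, and 97.4, 81.8, and 122 CPM in *tsh1 tsh4*. In both genes *tsh4* was clear of B73 and *tsh1* was not, and the double mutant overlapped *tsh4*. Their d in *tsh1*, *tsh4*, and *tsh1 tsh4* was 0.32, 0.71, and 1.19 (SE 0.21) for GRMZM5G887068 and 0.42, 0.92, and 1.08 (SE 0.18) for GRMZM2G010000. GRMZM2G470756 was at 32.3, 41.5, and 34.9 CPM in B73, 71.7, 38.4, and 70.9 CPM in *tsh1*, 78.7, 51.6, and 66.9 CPM in *tsh4*, and 70.2, 61.8, and 108 CPM in *tsh1 tsh4*. Here replicate 2 was the lowest library of every mutant.

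In 6 further members d was at least 2 times larger in *tsh4* than in *tsh1*. GRMZM2G010927 had d of 0.37, 0.95, and 1.23 for *tsh1*, *tsh4*, and the double mutant, and GRMZM2G153103 and GRMZM2G423900 both had 0.37, 0.84, and 1.19. GRMZM2G058450 had 0.40, 0.91, and 1.09 and, unlike those, had all *tsh1* libraries above B73. GRMZM2G303915 and GRMZM2G451506 were the others, at 1.13 and 1.105 in the double mutant. Of these 6 genes, 5 were at or below the sum, by 0.02 to 0.35, and GRMZM2G451506 was 0.10 above.

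With d larger in *tsh1*, GRMZM2G430623 had 0.85, 0.60, and 1.253, and GRMZM2G174537 had 0.77, 0.52, and 1.26. The *tsh1* libraries of both were clear of B73, and for GRMZM2G430623 the *tsh4* libraries were not. GRMZM2G303044, at 0.61, 0.34, and 1.21, had the smallest d in *tsh4* of all members, and neither of its single mutants was clear of B73. GRMZM2G061292 was the closest of all to the sum, with d of 0.63, 0.51, and 1.14 (SE 0.21). It was at 16.3, 12.9, and 12.7 CPM in B73, 22.9, 20.4, and 21.3 CPM in *tsh1*, 16.7, 21.4, and 21.7 CPM in *tsh4*, and 29.6, 22.997, and 42.5 CPM in *tsh1 tsh4*, so that the genotypes kept their order in all libraries. GRMZM2G153445, GRMZM2G025659, and GRMZM2G051534 had nearly equal d in the single mutants, at 0.63 and 0.60, 0.60 and 0.57, and 0.49 and 0.49, and reached 1.14, 1.06, and 1.06 in the double mutant, within 0.11 of the sum.

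In the remaining members d was equal or moderately larger in *tsh4*. GRMZM2G006229 reached 1.39 (SE 0.24) from 0.69 and 0.87. It was at 0.645, 0.863, and 0.959 CPM in B73, 1.16, 1.43, and 1.56 CPM in *tsh1*, 1.41, 1.73, and 1.58 CPM in *tsh4*, and 2.23, 2.72, and 1.98 CPM in *tsh1 tsh4*, in order throughout. GRMZM2G123977, GRMZM2G051942, and GRMZM2G091031 had double-mutant libraries above all others, at d of 1.27, 1.12, and 1.09, while their *tsh1* libraries overlapped B73. GRMZM2G143723, GRMZM2G129208, and GRMZM2G154725 had d of 1.23, 1.096, and 1.01, with only *tsh4* and the double mutant clear of B73. In GRMZM2G048022 and GRMZM2G121663, at 1.17 and 1.15, only the double mutant was, and both fell short of the sum, by 0.39 and 0.37 with SEs of 0.47 and 0.42.

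Against the single mutants directly, limma called 6 of the 45 genes higher in *tsh1 tsh4* than in *tsh1* at an adjusted p of at most 0.05, beside 2.48% of all genes, and 1 higher than in *tsh4*, beside 0.367%. At an unadjusted p of at most 0.05 these were 31 genes, beside 5.75%, and 16 genes, beside 2.53%. Against B73, 0 genes were called in *tsh1* (0.441% of all genes called higher) or in *tsh4* (2.04%), because the rule keeps d under 1, and all 45 were called in *tsh1 tsh4* (2.69%), or 28 to 45 when 1 of the 12 libraries was left out, with the fewest without replicate 2 of B73. Leaving out a *tsh1* or *tsh4* library does not change d in *tsh1 tsh4*. With the adjusted p alone, 2 genes passed in *tsh1*, beside 0.540% of all genes, and 9 in *tsh4*, beside 2.63%. These contrasts share their libraries and were all used by the rule, so that the counts only describe the selection.

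The 45 genes had low read counts. Their median was 2.79 CPM, beside 17.1 CPM for the 17272 genes with a mean of at least 1 CPM. There were 16 genes from 1 to under 2 CPM, 15 from 2 to under 5 CPM, 7 from 5 to under 20 CPM, and 7 above that, up to 278 CPM. Their replicates also spread more, with a median pooled SD of 0.36 log2 units beside 0.26 for those other genes. The lowest count behind any value was 20 reads, and the median of the lowest counts was 84 reads.

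A pair of members, GRMZM2G095689 and GRMZM2G095786, are neighbors, with 0 protein-coding genes between them in the NAM-5.0 gene order. GRMZM2G095689 was at 1.47, 2.54, and 2.96 CPM in B73, 3.14, 2.599, and 2.47 CPM in *tsh1*, 3.50, 3.36, and 4.55 CPM in *tsh4*, and 4.50, 8.62, and 7.33 CPM in *tsh1 tsh4*. GRMZM2G095786 was at 10.5, 9.90, and 11.97 CPM in B73, 14.4, 11.2, and 15.1 CPM in *tsh1*, 21.7, 18.4, and 24.3 CPM in *tsh4*, and 19.8, 20.1, and 27.1 CPM in *tsh1 tsh4*. Both were clear of B73 in *tsh4* and overlapped it in *tsh1*. Only GRMZM2G095689 had a double-mutant mean well above *tsh4*, with d of 0.28, 0.73, and 1.52 (SE 0.28) against 0.32, 0.98, and 1.03 (SE 0.19). The measured genes on either side, GRMZM2G400784 and GRMZM2G091362, had d of −0.53 and 0.15 in *tsh1 tsh4* and were not called. Whether reads of the neighbors were told apart by strand is not given in the sources used here.

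GRMZM2G420823 was at 7.06, 10.6, and 14.2 CPM in B73, 13.0, 13.4, and 13.0 CPM in *tsh1*, 19.1, 13.1, and 21.9 CPM in *tsh4*, and 23.8, 18.9, and 36.006 CPM in *tsh1 tsh4*. Its record in the gene table also lists GRMZM2G085460, which had d of 0.25, 0.61, and 0.75 in the same order of mutants and did not meet the rule. The 2 identifiers thus gave d in the same order, *tsh1* lowest and the double mutant highest. If they stand for a single locus, its reads were divided between them.

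Lists of genes of leaf outgrowth and polarity, auxin, gibberellin and brassinosteroids, cytokinin, cell wall growth, photosynthesis, lipids and cuticle, receptor kinases, and transcription factors held 0 of the 45 genes, as did the KNOX and vascular lists. The transcription factor list was matched by words in the names of the gene table, and *sbp3*, whose names there hold none of these words, is not on it. In *tsh1 tsh4*, 3 of 30 genes of leaf outgrowth were called higher and 3 lower, 3 of 29 auxin genes higher and 0 lower, 1 of 18 cytokinin genes higher and 2 lower, 1 of 9 gibberellin and brassinosteroid genes higher and 3 lower, and 2 of 19 cell wall genes higher and 0 lower. Of 132 genes on the transcription factor list, 7 were called higher and 12 lower. Of all genes, 2.69% were called higher and 3.15% lower. Members made up 45 of all 20168 genes, so lists of this size would hold few of them in any case. Since most of the 45 genes have no name, a list by name cannot show that these processes are not represented among them. The 56 genes left out beforehand were displayed by the study for leaf, meristem, boundary, and hormone functions. Among them *drl1* and *ZmICE1* met the rule, so the 0 was partly set by the choice of genes.

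The thresholds cut through a continuous range of values. GRMZM2G154725, at a d of 1.01 in *tsh1 tsh4*, was just inside, and GRMZM2G030123, at 0.99, was just outside, with 488 genes failing this condition alone. In *tsh4*, GRMZM2G303915 was inside at 0.9986 and GRMZM2G036286 outside at 1.0001, and 86 genes failed by this limit alone. In *tsh1* the lower limit was met by GRMZM2G451506 at 0.27 and missed by GRMZM2G129513 at 0.23, and 32 genes failed by it alone. The mean level put GRMZM2G161670 inside at 1.01 CPM and GRMZM2G172485 outside at 0.916 CPM, one of 21 genes. The condition of separate libraries alone removed 2 genes. The mirror rule for falls was met by 119 genes.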

How the data were processed

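Reads were trimmed (Trimmomatic 0.36), aligned to B73 RefGen_v3 (STAR 2.6.0a), and counted per gene (featureCounts) by the authors, who kept genes above 0.25 CPM in at least 3 libraries, and deposited TMM-normalized CPM from edgeR 3.22.5, a signal per gene rounded to 3 decimals. The strand setting of the counting is not given in the sources used here. All values of every library (100%) were, within 0.00055 CPM, multiples of the step that 1 read contributes, which gave the read totals. Reads of amplified RNA are not independent molecules, so depth limits counting error only.

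Contrasts were fitted with limma 3.58.1 under R 4.3.3, with a trend, to log2(CPM + 0.1) of 12 libraries and all 20168 genes, with Benjamini-Hochberg adjustment over all genes, and the fit was tested on simulated data. This scale understates the change of genes with few reads. Genotypes came from the sample titles. The members and the gene lists were chosen with earlier results of these data known, and the SBP, PP2C, GPDH, and cyclin sets after their values were seen. The genes displayed separately by the study were read from its drawing to be left out. Members with values in every library were the 8 with the highest d in *tsh1 tsh4*, the 6 with the highest mean CPM, the 3 highest and 3 lowest departures, and those with a name, and GRMZM2G006229, GRMZM2G055420, GRMZM2G061292, GRMZM2G095786, and GRMZM2G420823 were added after their values were seen. Names came from a gene table of another assembly, NAM-5.0, to which 14381 of the identifiers (71.3%) were matched, so no coordinates or sequences are given. Same-numbered libraries of B73 and *tsh1 tsh4* deviated together (r 0.240, 0.359, and 0.649). Pairs of these genotypes with different numbers had r from −0.523 to 0.275, so the ranges overlapped. The pairing was read from the values alone, and a replicate block was fitted for these genotypes as well. Alternatives were other pseudocounts, filters, scalings, count models (edgeR 4.0.16, DESeq2 1.42.0) on the recovered reads, a replicate block, other limits of the rule, and leaving out each library.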

Additional observations from a re-analysis of the deposited data

How the results depend on the processing

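With a pseudocount of 1 CPM, 19 of the 45 genes were called in *tsh1 tsh4*, and the median departure from additivity was −0.0151; it was −0.0202 with equal library totals. Without 1 library, 28 to 45 were called. Without B73 replicate 1, 2, or 3 there were 32, 28, and 34 calls, and without *tsh1 tsh4* replicate 3 there were 29. Runs without a *tsh1* or *tsh4* library called 44 or 45, but these leave d in *tsh1 tsh4* unchanged. The median departure ran from −0.16 to −0.0187 (without B73 replicates 3 and 2). Under the other alternatives 41 to 45 were called. The interaction gave 0 calls in all alternatives run, edgeR and DESeq2 included, with 3 genes each at an unadjusted p of at most 0.05. The labels do not say that a replicate number marks a shared plant or day. Over all genotypes the values did not settle whether the numbers pair the samples. The deviations from the genotype means correlated above 0.1 in 10 of 18 same-numbered pairs (r from −0.35 to 0.65, median 0.10). They did so in 12 of 36 others (r from −0.52 to 0.51, median −0.01). With the replicate block over the 12 libraries, 45 genes were called and 0 departed. In B73 and *tsh1 tsh4* all 3 same-numbered pairs were above 0.1, and a replicate block in these genotypes alone, chosen after seeing the data, also called 45.

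The rule was met by 68 genes with a minimum of 0 in the single mutants, by 23 with a minimum of 0.5, and by 41 to 68 without 1 library (68 without *tsh1 tsh4* replicate 2). With a pseudocount of 1 CPM it was met by 38 genes, of which 16 were among the 45, and with genotype medians by 37, of which 21 were. In the 12 runs without 1 library, 7 of the 45 met it every time and 26 at least 10 times; the fewest was 5, for GRMZM2G015314. Of 437 fold changes of named genes under alternatives, 409 kept their direction and call, 28 lost the call, and 0 reversed. The rule put every *tsh1 tsh4* library above every B73 library, so leaving out a library could not reverse a direction. Runs without a *tsh1* or *tsh4* library left these fold changes unchanged and could alter only the adjusted p. The tally therefore says little about how stable the directions are. With a pseudocount of 1 CPM the call was lost for *GPDH5* (0.91), *PP2C11* (0.85), GRMZM2G161670 (0.73), GRMZM2G015314 (0.70), and GRMZM2G041463 (0.69), and without the trend in limma for GRMZM5G800598 (1.05). All other losses came from leaving out 1 library. Besides *PP2C11* and GRMZM5G800598, these were for GRMZM2G161670 without B73 replicate 1 or 2 (d 1.24 and 1.26), GRMZM2G405567 without B73 replicate 1 (1.06) or *tsh1 tsh4* replicate 2 (1.14) or 3 (1.19), GRMZM2G041463 without B73 replicate 3 (1.02), GRMZM2G010000 without B73 replicate 2 (0.99) or *tsh1 tsh4* replicate 3 (0.93), GRMZM5G887068 and GRMZM2G470756 without *tsh1 tsh4* replicate 3 (0.97 and 0.87), *Baf1R-1* without *tsh1 tsh4* replicate 1 (0.98), and GRMZM2G015314 without B73 replicate 1 (0.99) or 2 (0.98) or *tsh1 tsh4* replicate 1 (0.97) or 3 (0.94). The causes were not tested.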
